A study of Penaeus japonicus with 16 samples.

Results

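Transcript levels in gills were set against those in hepatopancreas of kuruma shrimp (Penaeus japonicus), with 3 single-colour arrays for each organ, 6 of the 16 arrays in a series of 5 tissues. Members were chosen by the tissue label alone: gills 1, 2 and 3 against hepatopancreas 1, 3 and 4. The labels describe both groups as live shrimp, untreated and apparently healthy, and they give no strain, sex or age for either. Each array was hybridised with Cy3-labelled complementary RNA made from total RNA. Nothing in the labels tells which animals were used for which array. The p-values therefore measure only the spread between these samples, which may be technical, and 3 arrays per organ limit the precision of every estimate. Of the 13875 shrimp and virus probes on the array, the 526 named after white spot syndrome virus were left out, and 13349 were analysed.

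The gills of a crustacean take up oxygen, move ions and acid equivalents, excrete ammonia and hold circulating hemocytes in the narrow channels of their filaments. The hepatopancreas is the digestive gland of the midgut. It secretes proteases, lipases and carbohydrases into the gut, absorbs the products, stores lipid, and makes hemocyanin, the copper protein that carries oxygen in the hemolymph.

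Values are log2 of the signal divided by the 75th percentile of the array, so that 0 is the level of that percentile, and every difference is gills minus hepatopancreas. Values of single arrays are given in the order gills 1, 2 and 3, against hepatopancreas 1, 3 and 4. A probe was tested when all usable arrays of gills, or all of hepatopancreas, detected it, which held for 8803 probes and not for the other 4546. It was called at an adjusted p below 0.05 and a difference of at least 2-fold (limma, Benjamini-Hochberg over all tested probes). With fewer arrays in a fit, other probes can pass the detection filter. List medians of different array sets can therefore cover different probes. A probe measures transcript abundance in the whole tissue, so fewer cells of a type and less RNA per cell cannot be told apart, and probes of closely related family members may share signal. Levels are compared between tissues within a probe, never between probes.

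Arrays of the same organ resembled each other, with Pearson correlations across tested probes of 0.83 to 0.89 among gills arrays and 0.83 to 0.94 among hepatopancreas arrays. Gills 1 stood apart: it correlated at 0.50 to 0.55 with the hepatopancreas arrays, against 0.22 to 0.33 for gills 2 and 0.34 to 0.43 for gills 3. Transcripts typical of the hepatopancreas were also brighter there. The median level of the 15 hemocyanin probes was -0.87 on gills 1, -4.09 on gills 2 and -1.89 on gills 3, and 17 of 21 trypsin and chymotrypsin probes were detected on gills 1, against 10 on each of the other gills arrays. Hepatopancreas 4 was the less typical array of its tissue, at 0.83 and 0.84 with the other hepatopancreas arrays, which correlated with each other at 0.94. The 75th percentile of the signal, used for scaling, was 57.4, 288.1 and 183.5 on the gills arrays, against 35.9, 40.4 and 134.4 on the hepatopancreas arrays. Scaled values of probes near background therefore differ between arrays from this scale alone, and its part in the correlations was not tested. The share of analysed probes detected was 71.4, 79.7 and 62.5% on the gills arrays, against 50.3, 52.9 and 77.7% on the hepatopancreas arrays. Results are therefore also given without gills 1 or hepatopancreas 4 where that changed them.

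In all, 2561 probes were called, 29.1% of those tested. Gills had 1223 probes higher than hepatopancreas (13.9%) and 1338 lower (15.2%). The lower ones differed more: the median size of a called difference was 4.42 on the log2 scale for probes lower in gills and 3.09 for probes higher in gills. At least 100-fold differences numbered 48 among the higher probes and 247 among the lower ones, and at least 1000-fold differences numbered 4 and 106. Relative to the 75th percentile of the array, the lowest detected signal was higher on hepatopancreas 1 and 3 than on any gills array. Undetected spots could therefore fall further on gills arrays than on those arrays. The part of this in the sizes of the differences was not tested. The values of the tissues did not overlap at 3947 tested probes (44.8%) and at 2544 of the called ones. Without gills 1, 1122 probes were higher (12.2% of 9205 tested) and 1614 lower (17.5%), of which 1045 and 1280 were also called with all arrays. Leaving out gills 3 left 771 higher, and leaving out hepatopancreas 1 or 3 left 876 or 816 lower. The median difference over all tested probes was 0.26. Scaling to the probes detected on all 16 arrays, chosen after the data were seen, lowered that median by 0.38 and gave 841 higher and 1474 lower probes, so that 36.3% of the calls were higher, against 47.8% in the main scaling. Quantile normalization tilted the calls the other way, with 1562 higher and 1367 lower, so that 53.3% were higher. With signals below the lowest detected one of their array raised to it, 973 probes were higher and 1271 lower.

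**Figure D1:**
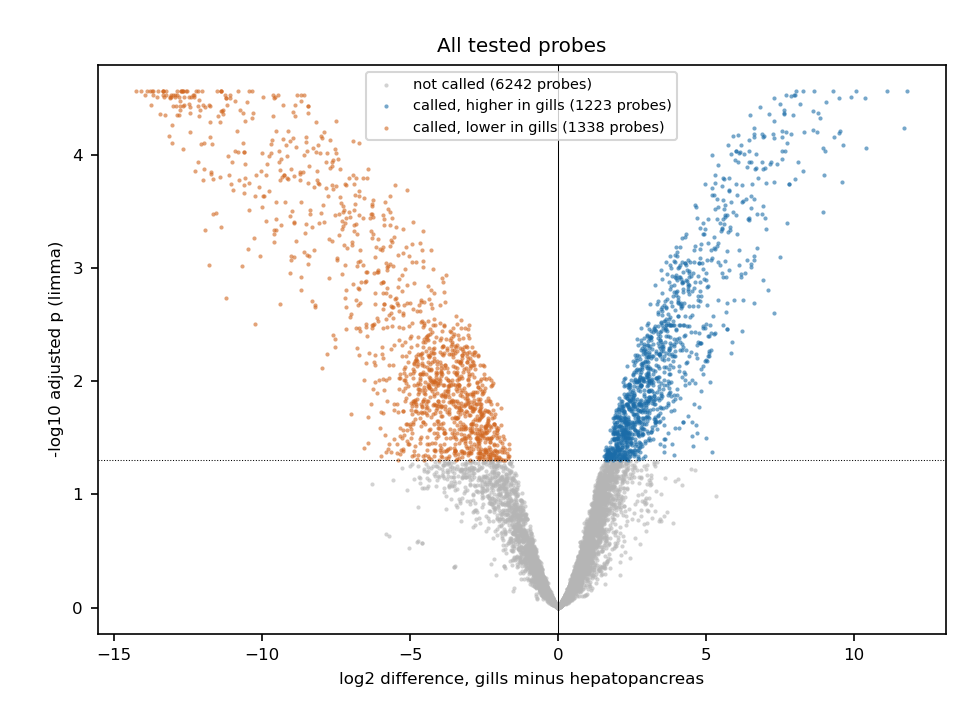
Each point is 1 of 8803 tested probes, with the log2 difference (gills minus hepatopancreas) on the horizontal axis and -log10 of the adjusted p on the vertical axis; the dotted line marks 0.05. The 1338 probes called lower in gills reach beyond -14, while the 1223 called higher stay below 12.

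Detection alone separated many transcripts. Among the 13284 probes with a usable spot on all 6 arrays, 4779 were detected on all 6 and 1083 on none. In gills, 468 probes were detected on all 3 arrays and on no hepatopancreas array, while 309 were detected on all 3 hepatopancreas arrays and on no gills array. For a probe undetected on an array of the dimmer tissue, that spot was raised to the lowest detected signal of its array, and the fold is a lower bound, written as at least N-fold. This applied to 784 of the higher and 830 of the lower calls.

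**Figure D2:**
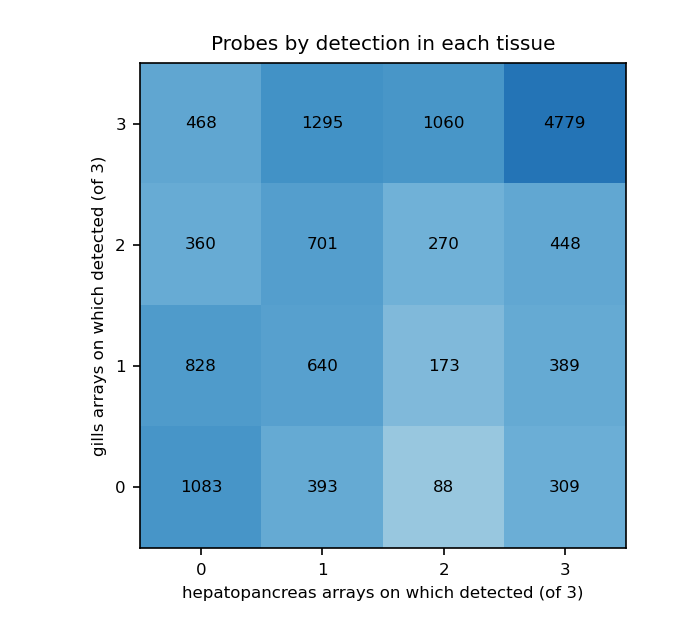
The grid counts the 13284 probes with 6 usable spots by the number of gills arrays (rows) and hepatopancreas arrays (columns) on which they were detected; darker cells hold more probes on a log scale. The corner for all 3 gills and no hepatopancreas arrays holds 468 probes, and the opposite corner holds 309.

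The label of each tissue was set against its defining transcripts. The 15 hemocyanin probes included 14 lower in gills and 0 higher, and all 3 amylase probes were lower, by 6.17 to 8.87 on the log2 scale. Of gill transcripts, the ammonium transporter Rh type b-like probe, for the channel that passes ammonia through gill epithelia, had 2.46, 2.48 and 3.29 in gills, against -0.24, 0.80 and -1.72 in hepatopancreas (log2 difference 3.13, SE 0.72, adjusted p = 0.012, a measured 8.76-fold higher level), although the call was lost within slide 2 and without gills 3. Carbonic anhydrases, also taken as gill markers, had 2 higher and 2 lower of 4 tested, with a median of -0.88. The sodium-potassium pump, which powers ion uptake across gill cells, was another gill marker. Probes matched as sodium potassium-transporting ATPase had 2 higher and 0 lower of 3 tested, with a median of 2.01 (range 0.19 to 5.01). Among these the beta-2-like subunit had 1.13, 1.15 and 2.62 in gills, against -2.46, -3.95 and -3.72 in hepatopancreas, and was at least 23.5-fold higher (log2 difference 5.01, SE 0.68, adjusted p = 0.000844). Both probes for the alpha subunit of the pump lay outside the marker words and were chosen after their values were seen. They missed the threshold at differences of 1.00 and 0.91 on the log2 scale (na+ k+ atpase alpha subunit, adjusted p = 0.283 and 0.325 in limma).

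Digestive proteases were among the largest differences. Of 21 tested trypsins and chymotrypsins, serine proteases that cut food proteins in the gut lumen, 20 were lower and 1 was higher, with a median difference of -12.53, or -11.73 with undetected spots raised to the lowest detected signal. A trypsin (cluster018140) had -0.12, -2.67 and -0.58 in gills, against 12.32, 13.27 and 11.10 in hepatopancreas, a measured 10485-fold lower level in gills (log2 difference -13.36, SE 0.82, adjusted p = 2.72e-05). A chymotrypsin-like protein (cluster014858) was undetected on all 3 gills arrays and had -3.71, -6.43 and -4.43 in gills, against 9.32, 10.13 and 8.22 in hepatopancreas, at least 12005-fold lower (log2 difference -14.08, SE 0.82, adjusted p = 2.72e-05). The gills arrays lay below all hepatopancreas arrays for both transcripts. The exception was another probe described as a chymotrypsin-like protein (cluster013366), at 0.29, -1.20 and 2.40 in gills, against -3.95, -4.83 and -3.71 in hepatopancreas, at least 10.6-fold higher in gills and detected on 1 hepatopancreas array (log2 difference 4.66, SE 0.90, adjusted p = 0.00572).

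Other peptidases were split. Among 41 tested carboxypeptidases and aminopeptidases, which trim peptides from their ends, and astacins, which cut within them, 20 were lower and 4 higher, with a median of -2.04. Carboxypeptidase A2 was undetected in gills, at -3.30, -5.41 and -5.35 in gills, against 7.58, 8.80 and 6.53 in hepatopancreas, and at least 3491-fold lower (log2 difference -12.32, SE 0.81, adjusted p = 2.95e-05). Aminopeptidase N (cluster003151), a membrane enzyme, went the other way: it was undetected in hepatopancreas, with 2.77, 3.35 and 3.68 in gills, against -4.35, -4.68 and -5.64 in hepatopancreas, and was at least 85.2-fold higher (log2 difference 8.16, SE 0.59, adjusted p = 3.59e-05). Of 4 probes with that description, 2 were higher and 1 lower. Carbohydrate-digesting hydrolases had 12 lower and 2 higher among 24 tested, with a median of -2.07 (-0.99 over 26 probes without gills 3). Without any 1 array but hepatopancreas 4, a single probe was higher. Maltase 2-like, which splits maltose, was at least 329-fold lower (log2 difference -10.57, SE 0.85, adjusted p = 5.08e-05). Sucrase, which splits sucrose, was at least 814-fold lower (log2 difference -9.70, SE 0.89, adjusted p = 9.71e-05). Plasma alpha-L-fucosidase (cluster019765), which removes fucose from glycans, was at least 35.7-fold higher in gills (log2 difference 7.29, SE 0.75, adjusted p = 0.000173), while another probe of the same description was lower by 7.29 on the log2 scale.

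Lipid handling also differed in both directions. Of 16 tested lipases, 8 were lower and 1 was higher, with a median of -2.10. The median was -0.96 over the 22 probes tested without gills 3, of which 7 were lower and 1 higher. It was -0.13 over 24 probes between the single arrays of slide 1, and -1.13 over 33 probes with all arrays and no detection filter. These sets of probes differ, so the medians do not show a dependence on arrays alone. Pancreatic triacylglycerol lipase, which hydrolyses dietary fat, was undetected in gills, with -5.53, -7.15 and -4.75 in gills, against 5.45, 6.10 and 4.83 in hepatopancreas, and was at least 884-fold lower (log2 difference -11.27, SE 0.73, adjusted p = 2.95e-05). Lipid transport and storage proteins had 15 lower and 11 higher of 33, with a median of -1.75 that turned to 1.49 under the stricter detection filter. Fatty acid binding protein 1b, an intracellular lipid carrier, had -1.86, -6.03 and -4.12 in gills, against 8.44, 9.72 and 6.37 in hepatopancreas, and was at least 3843-fold lower (log2 difference -12.18, SE 1.16, adjusted p = 0.000117); it was detected on gills 1 and on neither of the other gills arrays. Vitellogenin, the yolk protein precursor, was likewise at least 49.9-fold lower, with -2.21, -7.32 and -4.60 in gills, against 0.29, 1.39 and 3.70 in hepatopancreas (log2 difference -6.50, SE 1.32, adjusted p = 0.00691). By contrast a probe described as vitellogenin 2 had 5.81, 7.34 and 7.45 in gills, against -0.84, 0.14 and -1.71 in hepatopancreas, a measured 203-fold higher level in gills (log2 difference 7.67, SE 0.69, adjusted p = 9.23e-05). Apolipoprotein D (cluster026042), a lipocalin that binds small lipids, was at least 42.1-fold higher, and 7 of its 9 probes were higher and 1 lower. Intracellular fatty acid and peroxisomal metabolism had 5 lower (12.5%) and 2 higher (5.0%) of 40, with a median of -0.20. All tested probes had 15.2% lower and 13.9% higher, so the lower share was near that of probes in general. The 5 became 8 without gills 1, 3 without gills 3 or hepatopancreas 3, and 2 without hepatopancreas 1, and the 2 higher became 0 without gills 2; the median ranged from -0.46 to -0.02 over the arrays left out. Fatty acid synthase, which builds fatty acids, was undetected in gills, with -5.00, -7.83 and -5.95 in gills, against -1.78, -1.80 and -1.91 in hepatopancreas, and was at least 5.64-fold lower (log2 difference -4.43, SE 0.79, adjusted p = 0.00395).

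Hemocyanin was lower in gills at all but 1 of its probes. The 15 tested probes had a median of -12.10, also with undetected spots raised, and the 1 not called, hemocyanin subunit 1, had a difference of -1.80 (adjusted p = 0.0739 in limma); it was called lower without gills 1. Hemocyanin subunit Y had 1.80, -1.05 and 1.54 in gills, against 12.64, 12.87 and 10.93 in hepatopancreas, a measured 2671-fold lower level in gills (log2 difference -11.38, SE 0.87, adjusted p = 4.13e-05). The hemocyanin probe with the largest difference (cluster027645) had -1.86, -4.09 and -0.99 in gills, against 10.91, 11.98 and 9.95 in hepatopancreas, a measured 9811-fold lower level (log2 difference -13.26, SE 0.87, adjusted p = 2.95e-05). Gills 2 was the lowest of the 6 arrays for both probes.

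Chitin-digesting enzymes and gut lining proteins were mostly lower in gills, with medians nearer 0 on slide 1 than on slide 2. Chitinases, which degrade cuticle and peritrophic chitin, had 14 lower and 6 higher of 26, with a median of -5.43 over all arrays, -5.02 within slide 2 (gills 2 and 3 against hepatopancreas 3 and 4) and -0.27 between the single arrays of slide 1, where there is no test and 30 probes passed the filter. Without gills 3 the chitinase median was -0.47 over 30 probes, with 14 lower and 8 higher. Probable chitinase 3-like had -2.21, -4.65 and -3.45 in gills, against 9.46, 10.83 and 8.20 in hepatopancreas, a measured 7821-fold lower level (log2 difference -12.93, SE 0.85, adjusted p = 2.95e-05). By contrast, probable chitinase 2-like was undetected in hepatopancreas, with 0.03, 1.30 and 2.56 in gills, against -4.22, -4.61 and -5.38 in hepatopancreas, and was at least 21.7-fold higher (log2 difference 6.03, SE 0.75, adjusted p = 0.000498). Peritrophins and mucins, which line and protect the gut, had 9 lower and 1 higher of 14 (median -6.63, -1.38 on slide 1, and -3.82, -2.46 or -3.14 without gills 2, gills 3 or hepatopancreas 3). A peritrophin (cluster026578) had -4.02, -5.44 and -5.53 in gills, against 7.93, 8.39 and 6.78 in hepatopancreas, and was at least 3979.7-fold lower (log2 difference -12.69, SE 0.67, adjusted p = 2.72e-05). By contrast, peritrophin isoform A was a measured 11.3-fold higher (log2 difference 3.50, SE 0.66, adjusted p = 0.005).

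Lysosomal proteases and detoxification enzymes also had more probes lower than higher in gills. Of 52 cathepsins and other lysosomal proteins, 28 were lower (53.8%) and 12 higher (23.1%), against 15.2% and 13.9% of all tested probes. The list median was -2.71. With 1 probe per description the list held 23 probes, 6 lower and 7 higher, and its median turned to 1.36. Cathepsin D (cluster027028), an aspartic protease with 4 probes lower and 1 higher, had -1.63, -6.55 and -3.58 in gills, against 9.47, 9.89 and 8.05 in hepatopancreas, and was at least 6902-fold lower (log2 difference -13.05, SE 1.15, adjusted p = 7.96e-05). Cathepsin L (cluster023289), a cysteine protease, was detected on all arrays at -0.31, -3.84 and -0.91 in gills, against 11.07, 11.67 and 10.09 in hepatopancreas, a measured 6355-fold lower level (log2 difference -12.63, SE 0.92, adjusted p = 3.63e-05), while the other 4 cathepsin L probes were higher, by up to 3.79 on the log2 scale. Gamma-interferon-inducible lysosomal thiol reductase (cluster021234), which reduces disulfide bonds of proteins under degradation and had 2 probes higher and 1 lower, was at least 30.9-fold higher, with 1.88, 2.22 and 1.85 in gills, against -2.52, -4.61 and -3.86 in hepatopancreas (log2 difference 5.65, SE 0.65, adjusted p = 0.000342). Among 123 detoxification enzymes, 40 were lower (32.5%) and 11 higher (8.9%), with a median of -1.38, against the same 15.2% and 13.9%. Of 14 probes described as cytochrome P450, oxidases of foreign and endogenous lipids, 9 were lower and 1 higher, and that of cluster035931 had -4.75, -7.61 and -5.79 in gills, against 5.09, 5.18 and 3.84 in hepatopancreas, and was at least 523-fold lower (log2 difference -10.76, SE 0.81, adjusted p = 3.99e-05). Glutathione S-transferase M was at least 299-fold higher, with 6.34, 6.27 and 3.79 in gills, against -4.26, -2.89 and -3.24 in hepatopancreas (log2 difference 8.93, SE 0.80, adjusted p = 8.8e-05).

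The largest differences of named probes included a set of lectins and lectin-like proteins brighter in hepatopancreas. Lectins bind sugars on microbial and cell surfaces. Of 53 C-type lectins tested, 34 were lower and 9 higher, with a median of -6.68; with 1 probe for each of 7 descriptions the median was -0.26, with 3 lower and 3 higher, since 46 of the 53 probes bear the single description C-type lectin. The probe described as lectin C had the largest difference of all named probes, at -5.33, -7.19 and -4.23 in gills, against 8.29, 9.71 and 8.03 in hepatopancreas, at least 8219-fold lower (log2 difference -14.26, SE 0.84, adjusted p = 2.72e-05). The 4 isoform probes of lectin A were each undetected in gills and at least 5325-fold lower to at least 5933-fold lower, and type-2 ice-structuring protein, named after a fish antifreeze with a lectin fold, was at least 11350.3-fold lower. In the other direction, a C-type lectin (cluster014911) had 8.14, 7.29 and 7.01 in gills, against -3.13, -3.80 and -3.98 in hepatopancreas, and was at least 1431-fold higher in gills (log2 difference 11.12, SE 0.56, adjusted p = 2.72e-05). C-type lectin 4 was at least 35.7-fold higher. Lectins were thus among the largest differences in both directions.

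**Figure D3:**
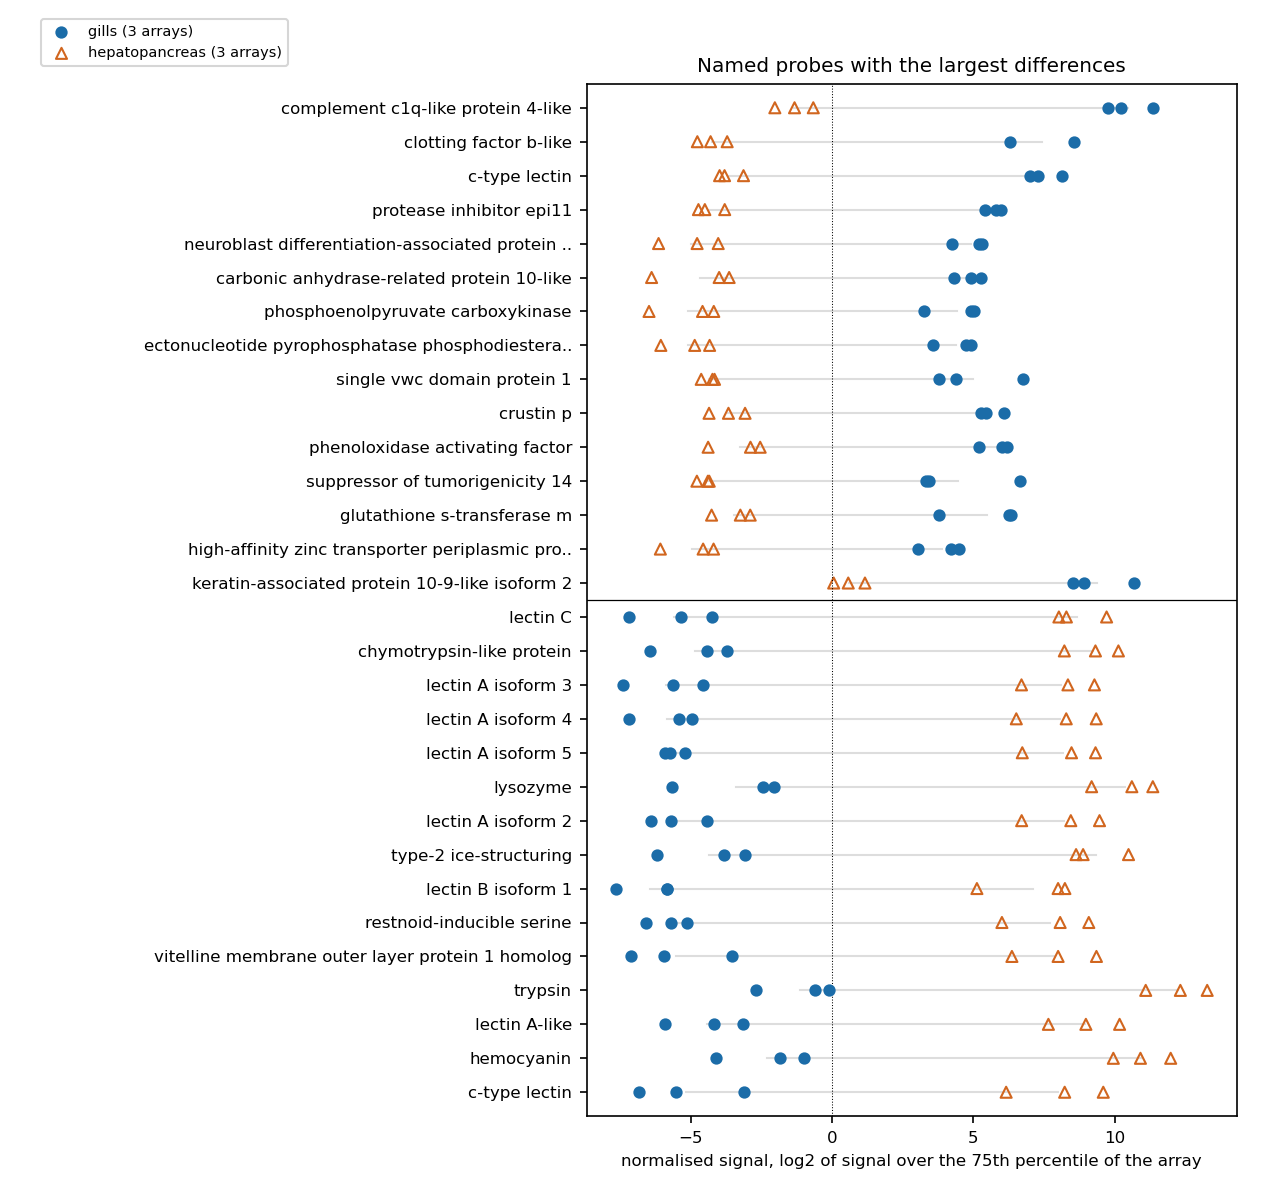
Values of single arrays for the 15 named probes with the largest positive difference (above the line) and the 15 with the largest negative one (below it), 1 probe per description. Filled circles are gills arrays, open triangles are hepatopancreas arrays, the horizontal axis is log2 of the signal over the 75th percentile of the array, and undetected spots are drawn at their measured value. The tissues do not overlap at any of the 30 probes, which were picked for the size of their differences. Of all tested probes, 44.8% had no overlap. Clotting factor B-like has 2 gills points because 1 spot was compromised.

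Clotting, melanisation and antimicrobial transcripts were mostly higher in gills, unlike the C-type lectins. Shrimp lack antibodies and defend themselves with clotting, melanin-forming phenoloxidase, antimicrobial peptides and phagocytic hemocytes. Of 45 tested clotting, complement-like and melanisation proteins, 35 were higher and 3 lower, with a median of 4.39; 1 was lower without gills 3, hepatopancreas 1 or hepatopancreas 3. A complement C1q-like protein 4-like probe, of a family of secreted recognition proteins, had 11.37, 10.22 and 9.77 in gills, against -1.33, -0.66 and -2.02 in hepatopancreas, a measured 3544-fold higher level (log2 difference 11.79, SE 0.62, adjusted p = 2.72e-05). Clotting factor B-like, named after a serine protease of horseshoe crab coagulation, had usable gills spots of 6.28 on gills 1 and 8.57 on gills 3, against -4.30, -3.71 and -4.76 on the hepatopancreas arrays, where it was undetected, and was at least 1522-fold higher (log2 difference 11.68, SE 0.83, adjusted p = 5.82e-05). Phenoloxidase activating factor, the protease that switches on prophenoloxidase, was undetected in hepatopancreas, with 6.01, 5.20 and 6.18 in gills, against -2.54, -2.88 and -4.38 in hepatopancreas, and was at least 489-fold higher (log2 difference 9.06, SE 0.65, adjusted p = 3.41e-05). Alpha 2-macroglobulin (cluster015598), a broad protease trap, had 3.57, 3.51 and 3.71 in gills, against -4.25, -4.66 and -5.07 in hepatopancreas, and was at least 107.3-fold higher (log2 difference 8.26, SE 0.52, adjusted p = 2.75e-05).

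Of 8 probes described as prophenoloxidase, 6 were higher and 1 lower. Prophenoloxidase (cluster030055), an oxidase that starts melanin synthesis, was at least 10.9-fold lower in gills at -2.99, -7.88 and -6.02 in gills, against 0.39, -0.36 and -2.02 in hepatopancreas (log2 difference -4.96, SE 1.21, adjusted p = 0.0156). Prophenoloxidase b was at least 9.38-fold lower. Another prophenoloxidase probe was a measured 51.7-fold higher, with 6.53, 3.90 and 4.93 in gills, against 1.49, -1.43 and -1.78 in hepatopancreas (log2 difference 5.69, SE 1.00, adjusted p = 0.00348). The calls of the lower pair were lost without gills 3, hepatopancreas 1 or hepatopancreas 3.

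Markers of hemocytes, the blood cells of shrimp, moved with these groups. All 19 tested hemocyte markers belong to the clotting list: 14 were higher in gills and 2 lower, or 0 lower without gills 3, hepatopancreas 1 or hepatopancreas 3. Clottable protein, which gels when transglutaminase cross-links it, had 2.37, 2.69 and 2.65 in gills, against -4.46, -4.04 and -4.23 in hepatopancreas, and was at least 50.5-fold higher (log2 difference 6.82, SE 0.51, adjusted p = 3.81e-05). Hemocyte transglutaminase was at least 48.6-fold higher, with 4.33, 2.73 and 4.81 in gills, against -0.64, -3.16 and -1.67 in hepatopancreas (log2 difference 5.78, SE 0.81, adjusted p = 0.00105). The median level of the 19 markers was 2.47, 2.15 and 3.71 on the gills arrays, against -0.76, -1.43 and -2.26 on the hepatopancreas arrays, and it ranged from 5.44 to 7.01 on the 4 hemocyte arrays of the series. Of the 35 clotting-list probes called higher in gills, 25 (71.4%) were detected on all 4 hemocyte arrays and 20 (57.1%) had a higher mean there than in gills, against 55.8% and 33.1% of all 1223 probes called higher. These 35 include the 14 markers called higher, of which 13 (92.9%) were detected on all 4 hemocyte arrays and 12 (85.7%) had a higher mean there. The markers were chosen as hemocyte transcripts and raise both shares, so these shares do not describe the rest of the list. Without the 19 markers the clotting list still held 21 higher and 1 lower of 26, with a median of 4.30. High marker levels were not particular to the hemocyte arrays. Of the 14 markers called higher, 14 were detected on all lymphoid organ arrays and 12 (85.7%) had a higher mean there than in gills, against 0 in muscle. Of the 35 clotting-list probes called higher, 17 (48.6%) had a higher mean in lymphoid organ than in gills, against 29.0% of all 1223. The part of hemocytes in the immune results was not tested.

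Antimicrobial peptides and lysozymes, which damage or digest bacterial walls, had 18 higher and 6 lower of 34, with a median of 3.93. The crustin P probe of cluster033155, a cysteine-rich antimicrobial peptide of crustaceans, had 6.07, 5.28 and 5.45 in gills, against -3.08, -4.35 and -3.66 in hepatopancreas, and was at least 362-fold higher (log2 difference 9.30, SE 0.57, adjusted p = 2.72e-05). The crustin P probe of cluster014343 was a measured 519-fold lower in gills, with 1.75, -3.67 and -0.78 in gills, against 8.05, 8.95 and 7.36 in hepatopancreas (log2 difference -9.02, SE 1.20, adjusted p = 0.000785). Lysozymes were split in the same way. The i-type lysozyme-like protein 2 probe was at least 41-fold higher, with 1.43, 2.90 and 2.30 in gills, against -4.02, -4.27 and -4.44 in hepatopancreas (log2 difference 6.46, SE 0.58, adjusted p = 9.23e-05). By contrast, the probe described as lysozyme had -2.05, -5.68 and -2.45 in gills, against 10.61, 11.35 and 9.18 in hepatopancreas, and was at least 13874-fold lower (log2 difference -13.77, SE 1.01, adjusted p = 3.63e-05), the sixth largest negative difference. Of the 18 probes called higher, 15 (83.3%) were detected on all 4 hemocyte arrays and 11 (61.1%) had a higher mean there than in gills, against the same 55.8% and 33.1%.

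Protease inhibitors, which restrain clotting and digestive proteases, had 21 higher and 5 lower of 37 (median 3.53). Probes described as protease inhibitor epi11 lay at opposite ends. That of cluster011645 had 5.98, 5.79 and 5.40 in gills, against -4.50, -4.72 and -3.80 in hepatopancreas, and was at least 406-fold higher (log2 difference 10.06, SE 0.54, adjusted p = 2.72e-05). By contrast, that of cluster006745 had -4.54, -7.63 and -5.80 in gills, against 7.60, 7.56 and 5.87 in hepatopancreas, and was at least 2587-fold lower (log2 difference -13.00, SE 0.87, adjusted p = 2.95e-05). A serpin (cluster006812), an inhibitor that traps serine proteases, was at least 52-fold higher (log2 difference 7.02, SE 0.73, adjusted p = 0.000179). Kazal-type serine proteinase inhibitor 4 had -2.25, -5.72 and -2.51 in gills, against 9.30, 9.84 and 8.39 in hepatopancreas, and was at least 6399-fold lower (log2 difference -12.67, SE 0.94, adjusted p = 3.74e-05). Of the 21 probes called higher, 12 (57.1%) were detected on all 4 hemocyte arrays, near the 55.8% of all probes called higher, and 9 (42.9%) had a higher mean there than in gills, against 33.1%.

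**Figure D4:**
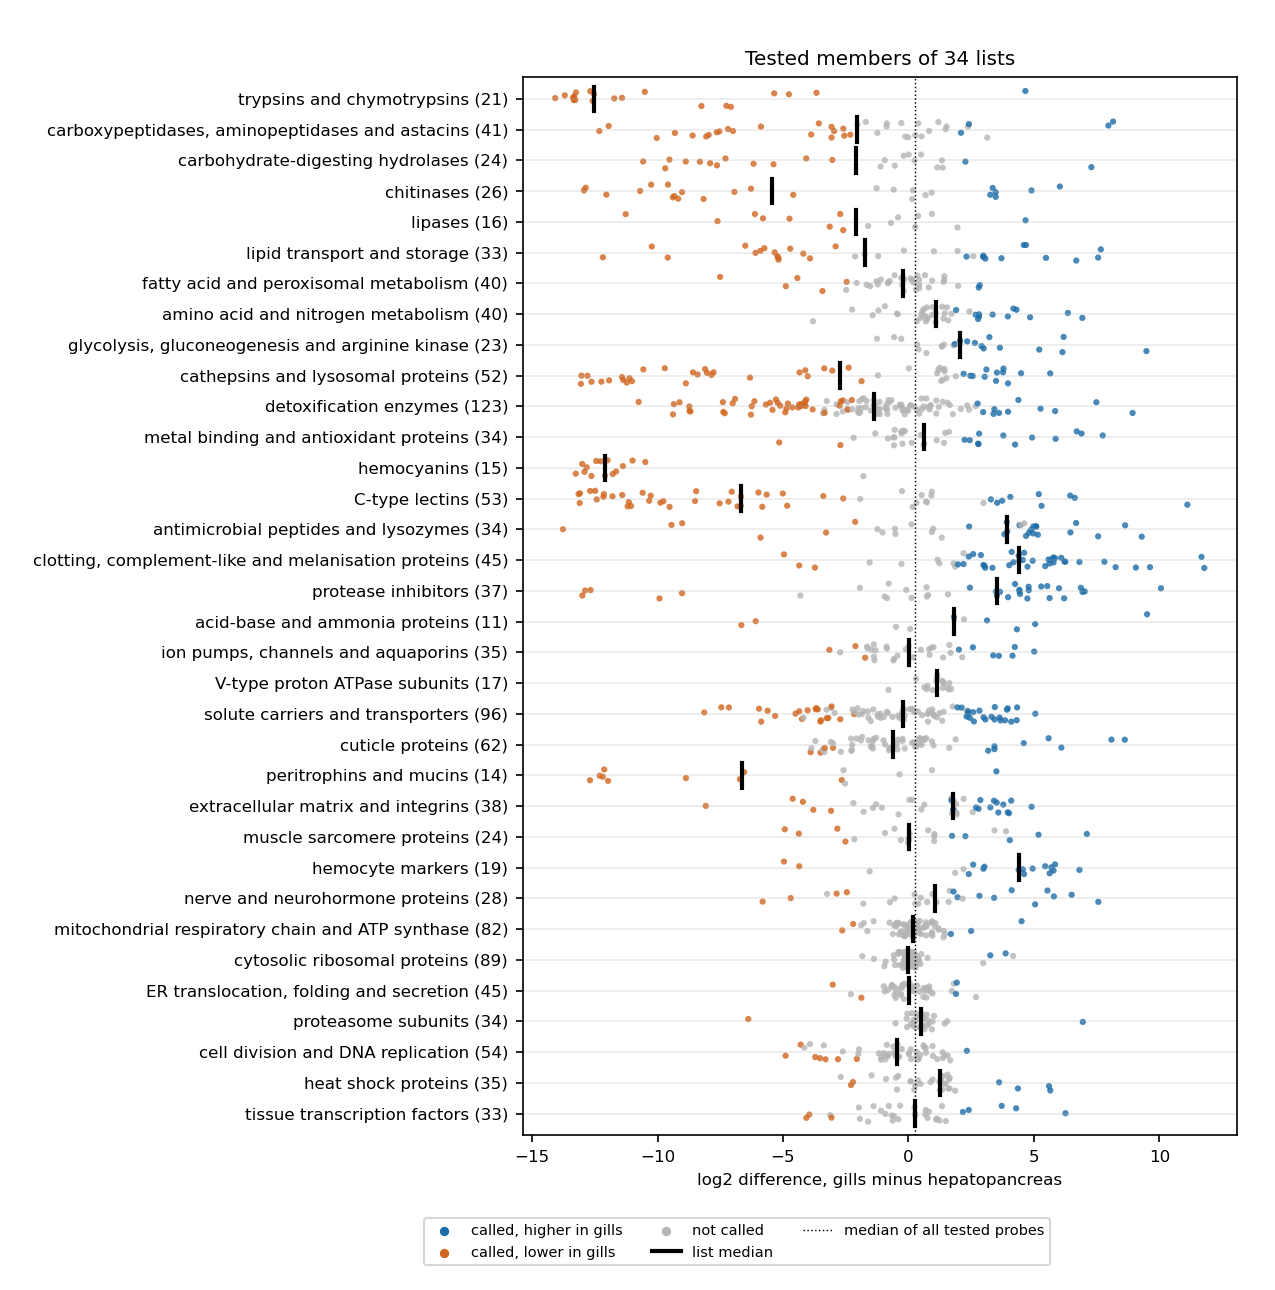
Each point is a tested probe of 1 of 34 lists, placed by its log2 difference (gills minus hepatopancreas); blue points were called higher in gills, orange points lower, and grey points were not called. Black bars are list medians, the dotted line is the median of all tested probes at 0.26, the number tested stands in brackets, and the vertical scatter within a row has no meaning. Hemocyanins (-12.10) and trypsins and chymotrypsins (-12.53) lie farthest left, and clotting proteins and hemocyte markers (4.39 each) farthest right.

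Acid-base and ion transport, the classical work of gills, gave calls in both directions. Of 11 acid-base and ammonia proteins, 5 were higher and 2 lower, with a median of 1.82, and 3 were higher without gills 3. Carbonic anhydrase 1, which interconverts carbon dioxide and bicarbonate, had 4.67, 5.71 and 4.23 in gills, against -0.38, -1.35 and 1.18 in hepatopancreas, a measured 33.1-fold higher level (log2 difference 5.05, SE 0.75, adjusted p = 0.00143). Carbonic anhydrase-related protein 10-like, a relative without that activity, was undetected in hepatopancreas and at least 254-fold higher (log2 difference 9.51, SE 0.79, adjusted p = 6.2e-05). Of 3 alpha-carbonic anhydrase probes, 1 was higher and 2 lower. That of cluster009926 was a measured 20.0-fold higher, with 3.05, 4.07 and 2.20 in gills, against 0.26, -0.98 and -2.93 in hepatopancreas. That of cluster008070 was undetected in gills and at least 39-fold lower, with -3.66, -7.67 and -5.78 in gills, against 1.75, 0.58 and 0.55 in hepatopancreas (log2 difference -6.66, SE 0.98, adjusted p = 0.00134). Ion pumps, channels and aquaporins had 7 higher (20.0%) and 3 lower (8.6%) of 35, against 13.9% and 15.2% of all tested probes. Their median of 0.01 changed sign with the scaling and with the array left out (-0.24 to 0.24). The 3 lower became 5 without gills 1, 1 without gills 2 and 0 without gills 3, hepatopancreas 1 or hepatopancreas 3. Calcium-activated chloride channel regulator 1 precursor was bright in both tissues, with 7.79, 7.58 and 7.28 in gills, against 4.14, 3.92 and 1.89 in hepatopancreas, and a measured 18.9-fold higher (log2 difference 4.24, SE 0.67, adjusted p = 0.00202). All 17 V-type proton ATPase subunits, the pump that acidifies compartments and energises membranes, missed the threshold in limma, at a median of 1.16 (range -0.80 to 1.70). At an unadjusted p below 0.05, 7 were higher and 0 lower, 6 were called higher under quantile normalization, and 1 without gills 1. The median was 1.74 without hepatopancreas 3 and 0.73 without hepatopancreas 4. Solute carriers had 23 higher and 21 lower of 96; leaving out single arrays gave 13 to 19 higher and 11 to 31 lower, with 13 and 11 without gills 3, 19 and 31 without gills 1, 14 and 16 without gills 2, 17 and 12 without hepatopancreas 1, 14 and 11 without hepatopancreas 3, and 15 and 23 without hepatopancreas 4.

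In the main fit of 6 arrays, sugar and amino acid metabolism had calls in 1 direction only, higher in gills. Glycolysis, gluconeogenesis and arginine kinase had 12 higher and 0 lower of 23 (median 2.05), although 6 were called without gills 3. At an unadjusted p below 0.05 in limma, 16 were higher and 0 lower. Before matches were removed on reading, that list had 12 higher and 1 lower of 35 (median 1.33). With all 16 arrays in the fit, 1 probe of the glycolysis list and 2 of the amino acid list were lower. Phosphoenolpyruvate carboxykinase, the entry enzyme of gluconeogenesis, was undetected in hepatopancreas, with 5.04, 4.92 and 3.26 in gills, against -4.18, -4.58 and -6.47 in hepatopancreas, and was at least 188-fold higher (log2 difference 9.48, SE 0.79, adjusted p = 6.39e-05). Fructose bisphosphate aldolase, which splits a sugar bisphosphate in glycolysis, had 2.34, 2.21 and 2.62 in gills, against -1.27, -1.10 and -1.40 in hepatopancreas, a measured 12.5-fold higher level (log2 difference 3.64, SE 0.50, adjusted p = 0.000893). Amino acid and nitrogen metabolism had 12 higher and 0 lower of 40 (median 1.08), against 15 higher and 2 lower at an unadjusted p below 0.05 in limma; the median was 0.71 without gills 2, and 1 was lower without gills 3 and 2 without hepatopancreas 4. Enzymes of phenylalanine and tyrosine breakdown were among the largest. Phenylalanine hydroxylase, which makes tyrosine, had 4.75, 2.64 and 3.34 in gills, against -2.55, -2.27 and -3.50 in hepatopancreas, and was at least 79.1-fold higher (log2 difference 6.35, SE 0.69, adjusted p = 0.000246). Further along the pathway, 4-hydroxyphenylpyruvate dioxygenase was at least 51.7-fold higher (log2 difference 6.93, SE 0.78, adjusted p = 0.000285). Homogentisate dioxygenase was at least 19.5-fold higher (log2 difference 4.85, SE 0.67, adjusted p = 0.000909).

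Most called antioxidant probes were higher as well. Metal binding and antioxidant proteins had 12 higher and 2 lower of 34, with a median of 0.61, 0.21 without hepatopancreas 4 and 1.05 without hepatopancreas 3. Selenium-dependent glutathione peroxidase, which removes peroxides, had 5.54, 6.02 and 3.51 in gills, against -1.20, -2.76 and -4.19 in hepatopancreas, and was at least 207-fold higher (log2 difference 7.74, SE 0.92, adjusted p = 0.0004). A copper zinc superoxide dismutase (cluster032149), which removes superoxide, was at least 119-fold higher, with 4.56, 5.32 and 2.45 in gills, against -2.32, -2.60 and -3.45 in hepatopancreas (log2 difference 6.90, SE 0.80, adjusted p = 0.000335). Both probes described as ferritin, the iron store, were called, in opposite directions. That of cluster033938 had 2.89, 3.61 and 3.24 in gills, against 5.28, 6.33 and 6.26 in hepatopancreas, a measured 6.56-fold lower level (log2 difference -2.71, SE 0.53, adjusted p = 0.00583), and the other was higher in gills by 4.25 on the log2 scale.

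Structural proteins gave mixed results. Cuticle proteins, which build the exoskeleton covering the gills, had 8 higher (12.9%) and 4 lower (6.5%) of 62 with all arrays. All tested probes had 13.9% higher and 15.2% lower, so cuticle proteins were not called higher more often than probes in general. Without gills 1 there were 8 higher and 20 lower of 63, and with slide as a block 15 were lower. Leaving out gills 2 left 2 lower, gills 3 or hepatopancreas 1 left 1, and hepatopancreas 3 left 0. Cuticle protein CB6 was at least 177-fold higher, with 4.21, 5.72 and 3.99 in gills, against -3.85, -4.63 and -3.45 in hepatopancreas (log2 difference 8.62, SE 0.66, adjusted p = 4.15e-05). Arthrodial cuticle protein was at least 215-fold higher (log2 difference 8.09, SE 0.77, adjusted p = 0.000117). By contrast, cuticle protein 6 had 0.16, -3.70 and -1.74 in gills, against 2.02, 2.41 and 1.99 in hepatopancreas, a measured 14.9-fold lower level (log2 difference -3.90, SE 0.91, adjusted p = 0.0129). On gills 1 the last of these stood well above gills 2 and 3. Extracellular matrix proteins and integrins had 15 higher (39.5%) and 5 lower (13.2%) of 38 (median 1.79), against the same 13.9% and 15.2%. There were 7 higher without gills 3, 8 higher without hepatopancreas 3 and 8 lower without hepatopancreas 4. Sparc, a collagen-binding protein of basement membranes, had 4.70, 4.85 and 4.47 in gills, against 1.45, 1.82 and -0.60 in hepatopancreas, a measured 13.7-fold higher level (log2 difference 3.78, SE 0.70, adjusted p = 0.00458). By contrast, fibronectin precursor was undetected in gills and at least 61.3-fold lower (log2 difference -8.08, SE 0.84, adjusted p = 0.000183).

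Muscle and nerve markers were followed because both tissues can hold muscle fibres and nerves. Sarcomere proteins had 5 higher (20.8%) and 4 lower (16.7%) of 24, against 13.9% and 15.2% of all tested probes. Their median of 0.04 changed sign with the scaling. Without gills 3, hepatopancreas 1 or hepatopancreas 3 the counts were 2 and 1, and the median difference ranged from -0.47 to 0.67 over the arrays left out. The median level was -0.38, -1.19 and 1.49 on the gills arrays, against -0.54, -0.54 and -0.93 on the hepatopancreas arrays. Sarcoplasmic calcium-binding protein (cluster008829), a calcium buffer of invertebrate muscle, was undetected in hepatopancreas, with 2.91, 2.41 and 2.06 in gills, against -4.43, -4.42 and -5.11 in hepatopancreas, and was at least 48.7-fold higher (log2 difference 7.11, SE 0.55, adjusted p = 4.35e-05). Myosin light chain 2 was at least 16.4-fold lower, with -2.28, -1.91 and -4.70 in gills, against 1.48, 2.59 and 0.14 in hepatopancreas (log2 difference -4.37, SE 0.91, adjusted p = 0.00804). Nerve and neurohormone proteins had 10 higher (35.7%) and 4 lower (14.3%) of 28 (median 1.04), against the same 13.9% and 15.2%. Without gills 2 or hepatopancreas 3, 2 were lower. Crustacean hyperglycemic hormone, a neuropeptide that raises hemolymph glucose, had 4.39, 3.20 and 3.75 in gills, against -3.99, -4.44 and -2.93 in hepatopancreas, and was at least 86.4-fold higher in gills (log2 difference 7.57, SE 0.62, adjusted p = 6.15e-05). Enterin neuropeptide, named after a gut peptide of molluscs, had 0.22, -2.02 and -2.16 in gills, against 3.46, 3.90 and 2.75 in hepatopancreas, a measured 25.8-fold lower level (log2 difference -4.69, SE 0.75, adjusted p = 0.00212).

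Housekeeping lists gave few calls beside the 13.9% higher and 15.2% lower of all tested probes. Few calls do not show equal levels in the tissues. Mitochondrial respiratory chain and ATP synthase probes had 3 higher and 2 lower of 82 (median 0.19), cytosolic ribosomal proteins 2 higher and 0 lower of 89 (median -0.01), endoplasmic reticulum translocation and folding proteins 2 higher and 2 lower of 45 (median 0.01), and proteasome subunits 1 higher and 1 lower of 34 (median 0.50). The first 3 medians changed sign between scalings, and quantile normalization called 14 ribosomal and 9 respiratory chain probes higher. Leaving out single arrays gave 0 to 2 higher and 0 to 2 lower respiratory chain probes, 2 to 4 higher ribosomal ones, 0 to 4 higher endoplasmic reticulum ones and 1 to 3 higher proteasome ones, with proteasome medians of 0.19 to 0.76. Single probes in these lists differed. The 40S ribosomal protein S11 probe, for a part of the small ribosomal subunit, had 1.43, 1.29 and 1.67 in gills, against -1.89, -1.09 and -2.41 in hepatopancreas, a measured 9.58-fold higher level (log2 difference 3.26, SE 0.56, adjusted p = 0.00326). The probe for 26S proteasome non-ATPase subunit 8, a part of the regulatory lid, was undetected in hepatopancreas, with 2.69, 2.65 and 2.53 in gills, against -3.41, -4.82 and -4.74 in hepatopancreas, and was at least 54.6-fold higher (log2 difference 6.95, SE 0.59, adjusted p = 6.79e-05).

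Cell division and heat shock transcripts depended on single arrays. Cell division and DNA replication had 1 higher (1.9%) and 7 lower (13.0%) of 54 (median -0.47), against 13.9% and 15.2% of all tested probes. Between the arrays of slide 1 the median was 0.79 over 76 probes, and within slide 2 it was -1.17 over 59 probes. Without hepatopancreas 4 it was 0.30 over 54 probes, with 6 lower. Without gills 3, 3 were lower with a median of -0.05. Kinetochore protein ndc80, which ties chromosomes to the spindle, had 0.35, -2.51 and -2.12 in gills, against 2.37, 2.79 and 1.71 in hepatopancreas, a measured 13.1-fold lower level (log2 difference -3.71, SE 0.81, adjusted p = 0.00969). Heat shock proteins, which refold damaged proteins, had 4 higher (11.4%) and 2 lower (5.7%) of 35 (median 1.26), against the same 13.9% and 15.2%. Without hepatopancreas 4, 15 were higher, and without hepatopancreas 3 the median was 0.48 with 0 lower. Of 6 probes of heat shock protein 67b2, 1 was higher and 1 lower, and that of cluster008836 had 2.16, 1.11 and 2.15 in gills, against -4.19, -4.51 and -2.69 in hepatopancreas, and was at least 20.8-fold higher (log2 difference 5.60, SE 0.67, adjusted p = 0.000409). Heat shock cognate 70 was brighter in hepatopancreas, with 4.19, 2.96 and 4.96 in gills, against 5.56, 6.23 and 7.19 in hepatopancreas, and a measured 4.9-fold lower in gills (log2 difference -2.29, SE 0.68, adjusted p = 0.0346), a call lost under 7 of 22 alternatives.

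Tissue transcription factors had 5 higher (15.2%) and 3 lower (9.1%) of 33, against 13.9% and 15.2% of all tested probes. The median of 0.24 changed sign with the scaling and without hepatopancreas 3 or 4. Leaving out any single array but gills 1 or hepatopancreas 4 left 3 higher, and leaving out gills 1 gave 5 lower. Probes of ets homologous factor, a regulator of epithelial genes in mammals, moved both ways. The isoform 3 probe was undetected in hepatopancreas, with 2.51, 0.41 and 1.97 in gills, against -2.69, -4.83 and -6.35 in hepatopancreas, and was at least 27.5-fold higher (log2 difference 6.26, SE 0.98, adjusted p = 0.00193). That of cluster031412 was a measured 19.6-fold higher, and a further probe of that description was lower by 3.07 on the log2 scale. Sox-8, an HMG-box factor, had 3.27, -0.19 and 1.88 in gills, against 5.73, 6.01 and 5.07 in hepatopancreas, a measured 15.5-fold lower level in gills (log2 difference -3.95, SE 0.85, adjusted p = 0.00907), with gills 1 closest to the hepatopancreas arrays.

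**Figure D5:**
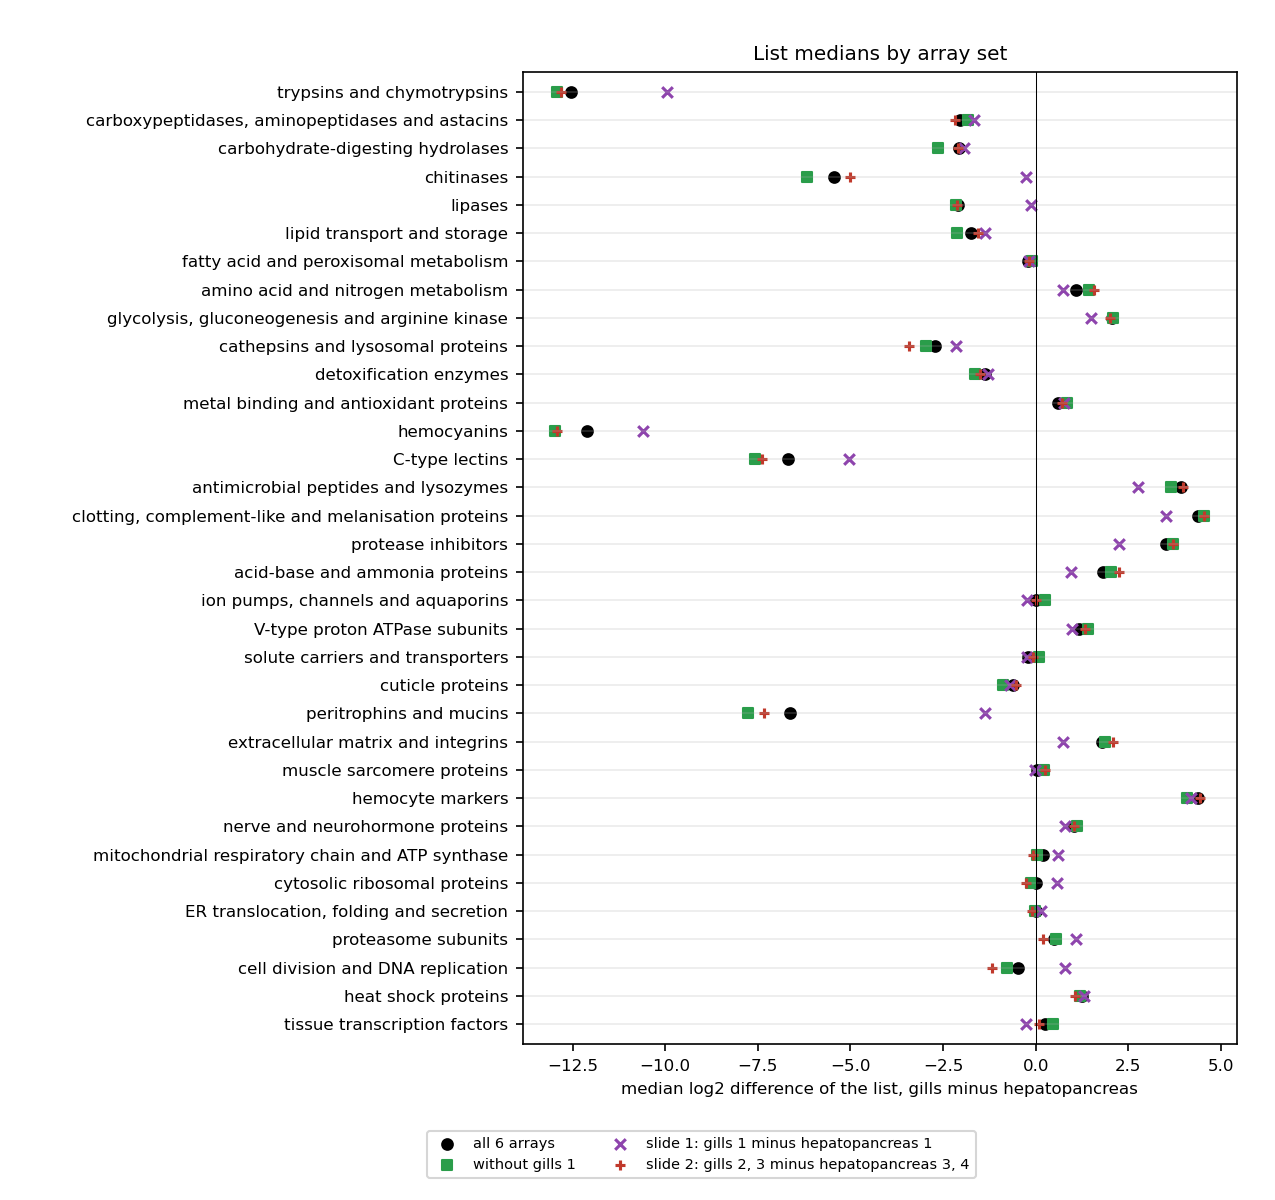
Median log2 difference (gills minus hepatopancreas) of each of the 34 lists with all 6 arrays (circles), without gills 1 (squares), between the arrays of slide 1 (crosses) and within slide 2 (plus signs). The slide 1 medians of chitinases (-0.27) and of peritrophins and mucins (-1.38) lie far from those within slide 2 (-5.02 and -7.34), and that of cell division (0.79) has the opposite sign to -1.17 within slide 2. The probes that pass the detection filter differ between the array sets.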

How the data were processed

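Cy3-labelled RNA of each tissue was measured on a custom Agilent array, and spots were read with Agilent Feature Extraction 10.7.3.1, per the file headers. The deposited scanner files hold processed signal intensity per spot, background-subtracted by the authors' extraction, per the file headers. The series value table deposited by the authors held log2 values equal to log2 signal minus the 75th percentile of the array, and served as an alternative.

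Here log2 processed signal was scaled to the 75th percentile of the 13349 analysed probes of each array. Control spots and the 526 probes named after white spot syndrome virus were left out, and compromised spots were treated as missing. A further 39 probes, named by an open reading frame or clone and a viral protein accession, stayed among the analysed probes. Differences were fitted in limma 3.58.1 (R 4.3.3) with lmFit and eBayes with an intensity trend on the 6 arrays (4 residual and 4.64 prior degrees of freedom), with Benjamini-Hochberg adjustment over 8803 tested probes. In simulated data the fit called 0 of 100 probes changed by 1 on the log2 scale, 3 of 100 changed by 2 and 43 of 100 changed by 4. It also called 4 of 8503 unchanged probes. Fewer probes were changed there than were called in the data, so these shares need not hold for the data. A probe that was not called may still differ between the tissues. Tables and plots used Python 3.11.15 with pandas 2.3.3, numpy 2.4.6 and matplotlib 3.10.9.

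Probe names are the descriptions on the array design, some of them old. The 34 lists, matched by words in those descriptions, cover 1349 tested probes, of which 24 are on more than 1 list. Matches were removed from many lists after their descriptions were read. The glycolysis list kept 23 of 41 matched probes on the array, and the cell division list 95 of 120. With all matches kept, the glycolysis median was 1.33 over 35 tested probes. That of peritrophins and mucins was then -2.63 over 20 tested probes, with 9 lower and 1 higher. The comparison, lists and members were chosen with earlier results of these data known. Named probes are, 1 per description, the 15 called probes with the largest difference in each direction, up to 4 per list in the direction of its median and up to 2 in the other; hemocyanin subunit 1, the sodium-potassium pump alpha subunit, further probes given only by their difference and the descriptions in the closing section were chosen after their values were seen. Alternatives covered samples in the fit, slide, scaling, detection filter, floor, thresholds, repeated descriptions and each array left out. Saturation flags were not used here.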

Additional observations from a re-analysis of the deposited data

Results flagged for a closer look

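Signal appeared on probes outside the comparison. Of the 526 probes named after white spot syndrome virus, 27 were detected on all 3 gills arrays and 60 on all 3 hepatopancreas arrays, although the animals were described as untreated and apparently healthy. Of these, 23 were detected on all 6 arrays, and 346 of the 526 were detected on none of them. No infected or virus-free control array was available for this comparison, and the source of the signal was not tested.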

How the results depend on the processing

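Leaving out each array in turn gave 771 to 1451 probes higher and 816 to 1614 lower in gills, against 1223 and 1338 with all arrays. With 1 probe per description, 887 were higher and 881 lower. Of the 34 list medians, that of lipid transport and storage turned from -1.75 to 1.49 under the stricter detection filter, and that of cathepsins and lysosomal proteins turned from -2.71 to 1.36 with 1 probe per description. The cause was not tested beyond the smaller number of probes in both. Several medians nearer 0 also changed sign. That of cell division went from -0.47 to 0.30 without hepatopancreas 4, and that of solute carriers from -0.22 to 0.08 without gills 1. The cytosolic ribosomal median went from -0.01 to 0.89 under quantile normalization. The all-probe median rose by 0.20 under quantile normalization and by 0.11 with scaling to the median. All 30 leading probes were called under all of their alternatives, as were 151 of the 188 probes named by the rule. These probes were picked for large differences on the same arrays, which favours that outcome, so the counts do not describe called probes in general. Replicate numbers 1 and 3 were shared by both tissues, but the labels do not say that they pair samples. Deviations of the arrays with the same number correlated at 0.20 and -0.10, against -0.21 to 0.15 for the other combinations. With 3 arrays per tissue these values cannot decide whether samples were paired, and the main fit used no pairs. A replicate block over all 16 arrays gave 1657 higher and 1682 lower. Slide as a block gave 1200 and 1536, and slide 2 alone 818 and 1365. Signals near background limit what can be measured: 784 of the higher and 830 of the lower calls have only a bound on their fold.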

Other observations

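Several descriptions borne by many probes and on none of the lists differed mostly in 1 direction; they were chosen after their values were seen. Membrane glycoprotein lig- was lower in gills at 13 of 13 tested probes, with a median log2 difference of -8.18, and vitelline membrane outer layer protein 1 homolog at 9 of 9 (median -11.23). Sphingomyelin phosphodiesterase, which cleaves a membrane lipid, was lower at 8 of 9 and higher at 1 (median -9.58), and protein fam115-like was lower at 7 of 7 (median -6.77). Of endonuclease-reverse transcriptase, an enzyme of transposable elements, 8 of 17 probes were lower and 0 higher (median -3.51). In the other direction, neuroblast differentiation-associated protein ahnak-like was higher at 8 of 8 (median 4.58) and trehalose-phosphate synthase, which makes the blood sugar of many arthropods, at 6 of 6 (median 7.56). Probes with the same description may measure parts of 1 transcript.

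A description did not always give the direction. Of 245 descriptions with at least 2 called probes, 78 (31.8%) had calls in both directions. Cathepsin C, a lysosomal peptidase, had 12 probes lower and 1 higher. Sulfotransferase 1c4, a detoxification enzyme, had 6 lower and 1 higher, with differences of -9.38 to 7.49. Cathepsin L had 4 higher and 1 lower.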
